A study of Mus musculus with 3 samples.

Results

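Nascent mesoderm genes are those switched on as cells leave the primitive streak of the early embryo and take on mesodermal fate. Brachyury, the T-box transcription factor made by the same cells, binds DNA through a short recognition sequence and is required for posterior mesoderm and the notochord. Genes of this group act in several steps of that transition. Mesp1, Mesp2 and Msgn1 encode basic helix-loop-helix transcription factors, Mixl1 encodes a homeobox factor, Dll1 encodes a Notch ligand and Snai1 encodes a zinc-finger repressor of the epithelial adhesion gene E-cadherin. The regions described here are the Brachyury-bound regions whose midpoint lay within 100 kb of the transcription start position of 1 of these 6 genes. They numbered 8 of the 3160 regions in the list for the whole series.

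The cells were mesoendoderm cells, precursors of mesoderm and endoderm, derived without serum in an Activin A dependent protocol from D3, a mouse embryonic stem cell line whose strain of origin is labelled (C3H/HeH x 101/H)F1. All 3 libraries came from such cells and from this 1 line. Chromatin immunoprecipitation with sequencing was done with antibody #1 and antibody #2, custom sera of separate rabbits immunized with a GST fusion of the same part of Brachyury, and with pre-immune IgG as the mock, giving 1 library each. The values are the positions in the deposited common list, on build mm9. The list has no score or read count and no column for a single library, so depth is unknown, no error can be given for a region, and neither the antibodies nor the mock can be compared. Expression was not measured, so the labelled cell type was not checked against its markers.

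The start positions used are rounded to 10 kb, so each distance below is uncertain by about 5 kb. A distance is from a start position to the midpoint of a region, and positions within that uncertainty are not assigned to a side of the gene. The sequence under the regions was not analysed here, because no mm9 genome was used. Promoters are shown instead for Mesp1, Mesp2 and Msgn1, which each had a region within 10 kb and held at least 1 of the sequence words searched. They are RefSeq promoters on GRCm38.p6, and whether the mm9 regions cover them was not tested. Capitals mark matches to T-box (AGGTGTGA and the shorter GGTGTGA, which it contains), Tcf/Lef (CTTTGAT) and Foxh1 (AATNNACA) words on either strand. The stretches are written 5′ to 3′ on the strand of the gene.
Mesp1, chr7:79793571-79793720, minus strand: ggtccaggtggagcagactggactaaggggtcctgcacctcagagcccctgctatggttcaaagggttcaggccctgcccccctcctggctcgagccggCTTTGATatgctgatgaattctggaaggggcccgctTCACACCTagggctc
Mesp2, chr7:79810737-79810766, plus strand: cttcgaggggtcagAATCCACAcctctgca
Msgn1, chr12:11209049-11209198, minus strand: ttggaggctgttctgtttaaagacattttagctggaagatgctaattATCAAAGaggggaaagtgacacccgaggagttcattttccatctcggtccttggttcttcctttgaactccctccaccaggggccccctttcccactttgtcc

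The full T-box word occurred in 1 of the 6 promoters available for these genes, that of Mesp1, where it reads TCACACCT on the strand of the gene. It spans bases 6 to 13, counted from 1 at the first transcribed base. Over all 32851 RefSeq promoters of 300 bases, which run from 250 bases before the start to 50 after it, 1.28% held this word and 3.98% held its shorter form. The Tcf/Lef word lay in the Mesp1 promoter at -31 to -25 and, on the opposite strand, in the Msgn1 promoter at -203 to -197, against 3.73% of all promoters. The Foxh1 word lay in Mesp2 at bases 25 to 32, and 12.2% of all promoters held it. None of these words was found in the promoter of Snai1 or in either of the 2 promoters of Dll1 in the table. Mixl1 has no entry there. A match describes these letters and does not show a site.

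All 6 genes had at least 1 region within 100 kb, and 0 had none. As background, windows of the same 200 kb width were laid side by side from each gene along its own chromosome, and 19.6% of 3616 such windows on the 5 chromosomes held a region (Wilson 95% interval 18.3% to 20.9%, counting error only). Mesp1 and Mesp2 had 3 regions each, and these were the same 3 regions, because the windows of these neighbouring genes overlap. Msgn1 had 2 regions, and Dll1, Mixl1 and Snai1 had 1 each. A region lay within 10 kb of the start position at 5 of the 6 genes, the exception being Dll1. At Mesp1 this depends on the rounding. Its nearest regions lay at 5.55 and 15.8 kb on opposite sides, and a start position 5 kb higher would put both beyond 10 kb. The limit of 10 kb was chosen after these distances were seen. Of positions taken every 10 kb, 2.25% had a region that near on chromosome 7 (Mesp1 and Mesp2), 2.29% on chromosome 12 (Msgn1), 2.11% on chromosome 1 (Mixl1), 2.78% on chromosome 2 (Snai1) and 3.11% on chromosome 17 (Dll1). The shifted windows and positions were laid without regard to genes, so they do not show what other genes have, and no test was made. The genes and windows were also chosen with earlier results of these data known. Since Mesp1 and Mesp2 share their regions, the 6 genes are not separate observations.

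**Figure D1:**
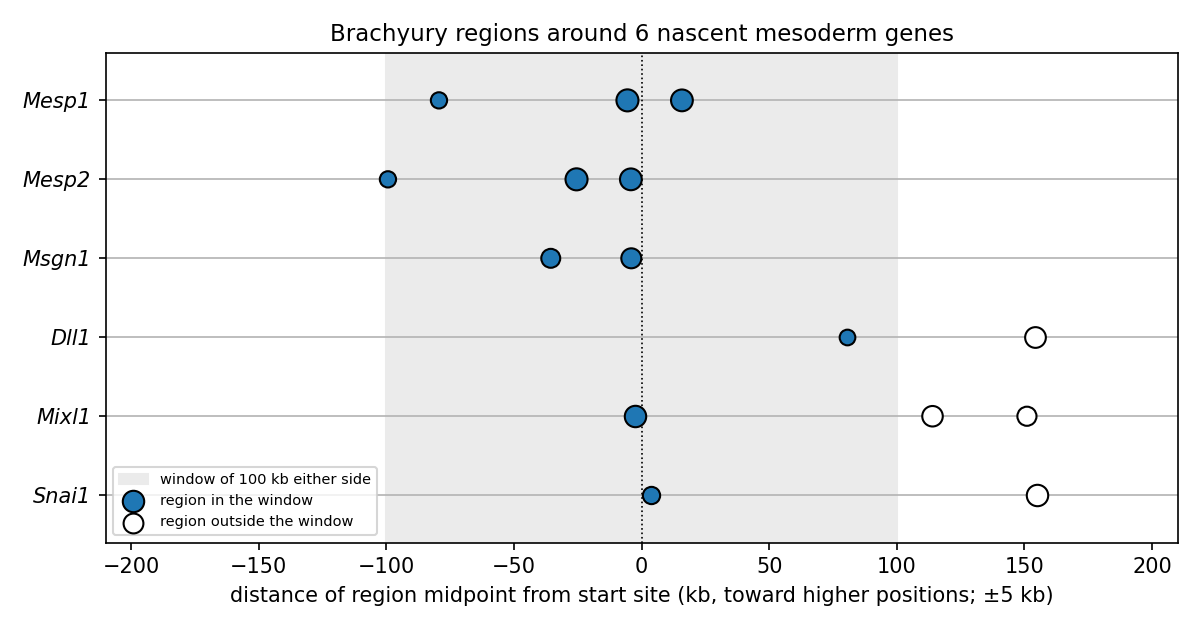
Midpoints of the Brachyury regions around each gene, as distance from the start position in kb toward higher chromosome positions (uncertain by 5 kb), with circle area proportional to region width. Filled circles are the regions in the window of 100 kb either side (grey) and open circles the regions outside it, up to 200 kb. The regions 230 and 243 kb from Mixl1 are not drawn. At 5 genes a filled circle sits within 10 kb of the start position, while the only filled circle of Dll1 sits at 80.4 kb.

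Mesp1 and Mesp2 are related neighbours on chromosome 7 that are read away from each other, Mesp1 on the minus and Mesp2 on the plus strand. Mesp1 marks the earliest cardiovascular progenitors, and Mesp2 sets the segment borders of the presomitic mesoderm. The first region of the locus, chr7:86933894-86935011, was 1118 bp wide and lay 5.55 kb from the position of Mesp1 (86.94 Mb) toward lower coordinates. This is the downstream side of Mesp1, and the distance barely exceeds the rounding. The second, chr7:86955239-86956331, was 1093 bp wide and lay 4.21 kb from the position of Mesp2 (86.96 Mb), inside the rounding. Relative to Mesp1 it lay 15.8 kb away on the upstream side. Each of the start positions thus had a different region nearest to it. The third, chr7:86860267-86860875, was 609 bp wide and lay 79.4 kb from Mesp1 and 99.4 kb from Mesp2.

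The regions near Mesp1 and Mesp2 were 21.3 kb apart from midpoint to midpoint. In the whole list 250 of 3140 adjacent pairs, or 7.96%, were as close or closer, and the median spacing was 306 kb. Regions in the same 200 kb window cannot lie farther apart than its width. A spacing below this median was therefore fixed by the choice of window. The share is given for this closest pair only and was not tested. The third region was 73.9 kb from its nearest neighbour. In the gene order of GRCm38.p6, Wdr93 and Pex11a precede Mesp1 and Anpep and Ap3s2 follow Mesp2, so the locus holds other genes to which a region may belong. At least 1 region was found in 18.1% of shifted windows on chromosome 7 laid from Mesp1 and in 18.9% laid from Mesp2. Windows with at least 3 regions numbered 5 of 742 on chromosome 7 (0.674%) when laid from Mesp1 and 3 of 742 (0.404%) when laid from Mesp2. The mean was 0.233 regions per shifted window from Mesp1 (SD 0.558 between windows). Both windows of this locus hold the same regions and count as 1 observation of its density.

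Msgn1 encodes mesogenin 1, which drives progenitors into the presomitic mesoderm. Its nearer region, chr12:11215502-11216421, was 920 bp wide and lay 4.04 kb from the start position (11.22 Mb), inside the rounding. The other, chr12:11184033-11184858, was 826 bp wide and lay 35.6 kb away. Msgn1 is on the minus strand, so the farther region is on its downstream side, the side of Kcns3 in the GRCm38.p6 gene order. The regions were 31.5 kb apart and each was the other's nearest neighbour in the list. On chromosome 12, 21 of 583 shifted windows (3.6%) held at least 2 regions, and 18.9% held at least 1.

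**Figure D2:**
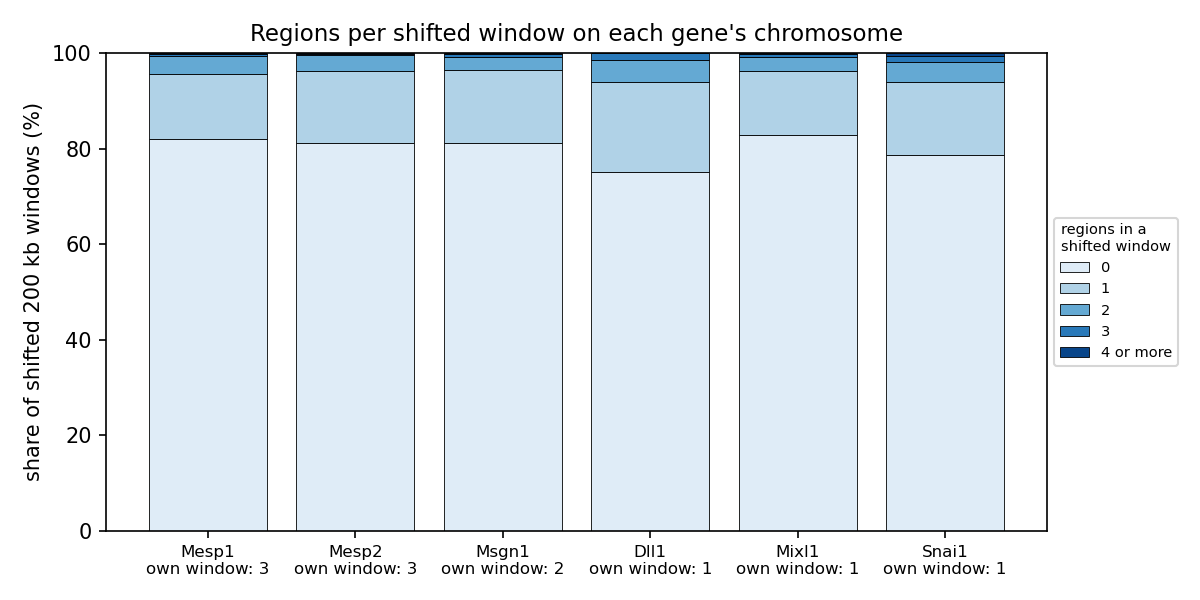
Share of shifted 200 kb windows (vertical axis, percent) on the chromosome of each gene that held 0, 1, 2, 3 or at least 4 regions, with the number in the gene's own window under its name. Most shifted windows were empty on every chromosome. The counts of 3 at Mesp1 and Mesp2 fall in the thin upper segments, and the count of 1 at Dll1, Mixl1 and Snai1 in the segment next to the empty windows.

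Mixl1 encodes a paired-type homeobox factor of the primitive streak that acts in mesoderm and endoderm formation. Its single region, chr1:182626688-182627744, was 1057 bp wide and lay 2.78 kb from the start position (182.63 Mb), the shortest distance among the 6 genes, though the order among distances under 5 kb is not resolved by the rounding. No other region lay within 117 kb of it by midpoint. In the gene order of GRCm38.p6, Parp1 and Lin9 precede Mixl1 and Acbd3 and H3f3a follow it, so the region may belong to another gene. A count of 1 or more was found in 162 of 947 shifted windows on chromosome 1 (17.1%). As to distance, 0.575% of 18966 positions had a region as near. This share, like those given below for the other genes, takes the start position as exact, although it is uncertain by about 5 kb. On chromosome 1, 2.11% of positions had a region within 10 kb.

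Snai1 encodes the repressor that lets cells of the primitive streak lose their epithelial contacts. Its single region, chr2:167363381-167364068, was 688 bp wide and lay 3.72 kb from the start position (167.36 Mb), inside the rounding. Its nearest neighbour was 151 kb away. On chromosome 2, 21.3% of 888 shifted windows held at least 1 region, and 1.11% of 17795 positions had a region as near as that of Snai1. In GRCm38.p6, Rnf114 precedes the gene and Ube2v1 follows it.

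Dll1 encodes a ligand of the Notch receptors that acts in the presomitic mesoderm and its segmentation. It differed from the other 5 genes in having no region within 10, 25 or 50 kb. Its region, chr17:15590104-15590669, was 566 bp wide, the narrowest of the 8, and lay 80.4 kb from the start position (15.51 Mb) on the upstream side of this minus-strand gene. Fam120b and Psmb1 are the next coding genes on that side in GRCm38.p6. Of 456 shifted windows on chromosome 17, 25% held at least 1 region. Of 9153 positions on that chromosome, 21% had a region as near as Dll1 has, so the count and the distance at Dll1 were common ones on its chromosome.

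**Figure D3:**
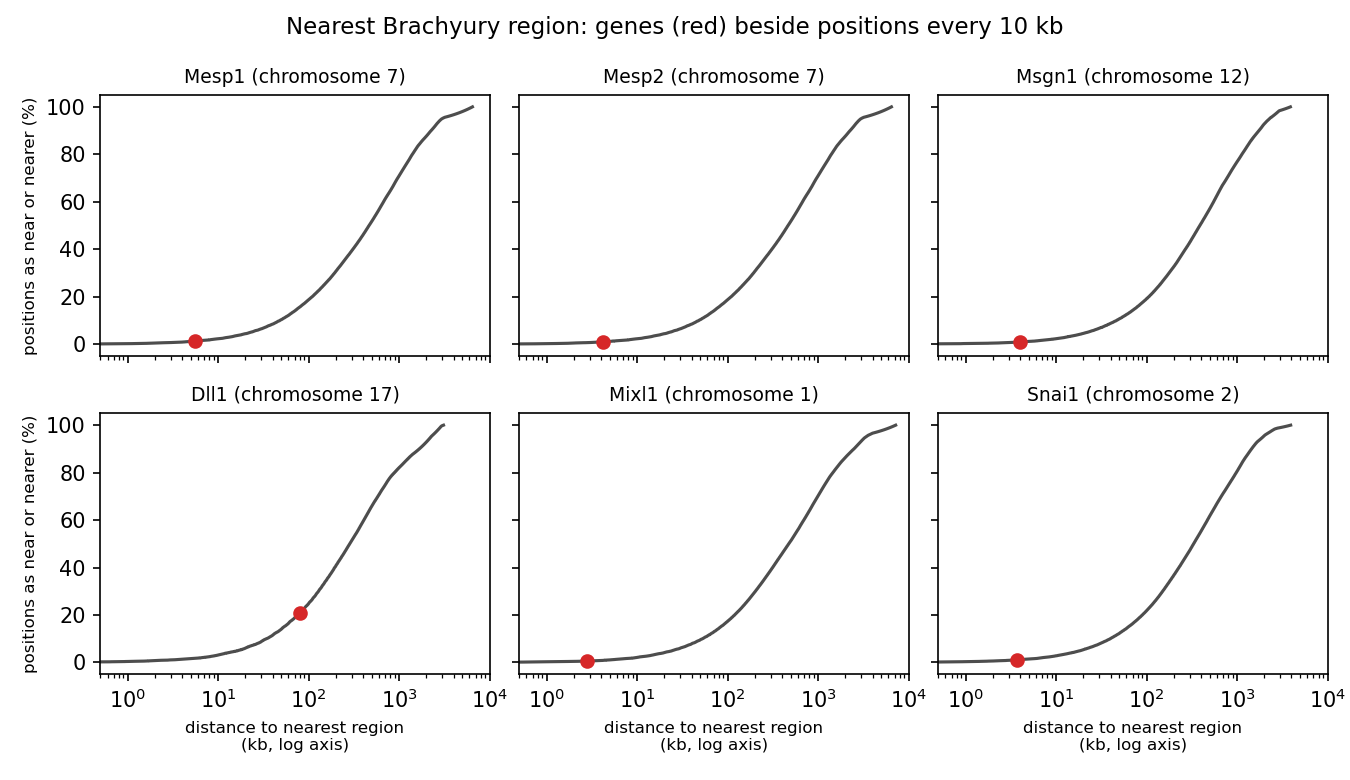
Distance to the nearest region (horizontal axis, kb, log scale) for positions every 10 kb on the chromosome of each gene, as the percent of positions that near or nearer (grey line), with the gene as a red point. The red points of 5 genes lie at the foot of the curve, between 2.78 and 5.55 kb and at 0.575% to 1.31% of positions. That of Dll1 lies at 80.4 kb and 21%. The start positions of the genes are uncertain by about 5 kb, so the red points are not exact.

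For the other members of the group, the nearest distance of 5.55 kb at Mesp1 was matched by 1.31% of 14865 positions on chromosome 7. The 4.21 kb at Mesp2 was matched by 0.922% of them and the 4.04 kb at Msgn1 by 0.957% of 11706 positions on chromosome 12. The median position on these chromosomes was 466 kb (chromosome 7) and 388 kb (chromosome 12) from a region. The median was 475 kb on chromosome 1, 331 kb on chromosome 2 and 285 kb on chromosome 17. Chromosome 17 was thus the densest of the 5 around a typical position, and its shifted windows held a mean of 0.327 regions.

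The width of a region is the only other measurement in the list. The 8 regions ranged from 566 to 1118 bp with a median of 873 bp. All 3160 regions ranged from 6 to 4180 bp with a median of 850 bp (quartiles 680 and 1020 bp). At or above that median were 4 of the 8 regions. These were the regions near Mesp1, Mesp2, Mixl1 and Msgn1, and 83.9%, 82.2%, 79.4% and 62.6% of the list were as narrow or narrower. The region at Snai1 was the narrow one among the 5 within 10 kb, with 26.4% of the list as narrow. The 3 regions farther away were 566, 609 and 826 bp wide and all below the list's median, at 10.2%, 15% and 46.3% of the list. The groups overlapped, since the region at Snai1 was narrower than the farther region of Msgn1. Summed over a window, regions covered 2820 bp at Mesp1 and the same at Mesp2, 1746 bp at Msgn1, 1057 bp at Mixl1, 688 bp at Snai1 and 566 bp at Dll1. The division by distance was made after the widths were seen and was not tested. It takes the rounded start positions as given, and the region near Mesp1 may lie beyond 10 kb. Region width depends on how the list was made and was not taken as a measure of binding strength.

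**Figure D4:**
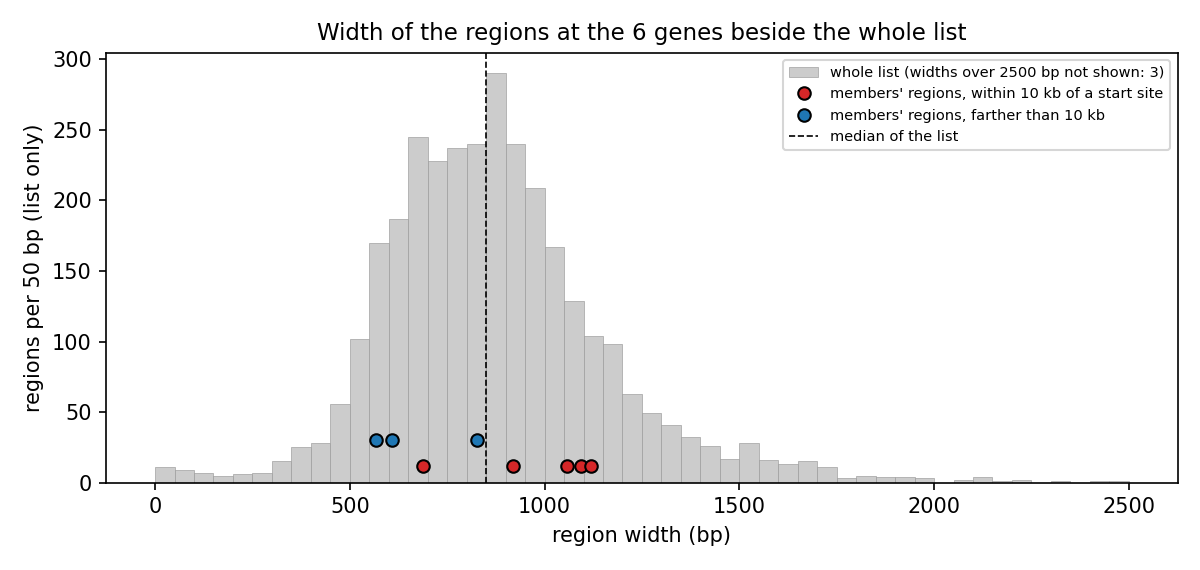
Widths of the regions in the list (grey histogram, regions per 50 bp), without its widest regions, which reach 4180 bp and are not drawn. The 8 regions at the 6 genes are points at an arbitrary height, and the median of the whole list is a dashed line. Of the 5 regions within 10 kb of a start position (red), 4 lie to the right of the median of 850 bp, and the 3 farther regions (blue) lie to its left.

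The limit of 100 kb decided little at its edge except at Mesp2. The region just inside it was the one at 99.4 kb from Mesp2, which Mesp1 also holds at 79.4 kb. The region just outside it was 114 kb from Mixl1, at chr1:182743524-182744492 with a width of 969 bp. Next came regions 151 kb from Mixl1, 154 kb from Dll1 and 155 kb from Snai1, of 842, 988 and 1057 bp, all on the side of higher positions. Mixl1 had further regions at 230 and 243 kb, of 747 and 711 bp, on the same side. The region beyond the limit was wider than the one within it at Dll1 and Snai1, whereas all 4 regions beyond it at Mixl1 were narrower than the one within it. No region lay between 100 and 300 kb of Mesp1, Mesp2 or Msgn1.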

How the data were processed

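Per the submitters' processing notes, the tools named are Bowtie and MACS2 and the build is mm9, without versions or settings. The authors deposited 1 list of 3160 regions with 3 columns (chromosome, start, end). Its name calls it common. The peak thresholds and the part played by the mock were not given in the sources used here. Whether and how peaks of both antibodies entered the list was not given either. Starts were raised by 1 base. Python 3.11.15, numpy 2.4.6, scipy 1.17.1, pandas 2.3.3 and matplotlib 3.10.9 were used. A region was counted at a gene where its midpoint lay within 100 kb of the gene's start position, given to 10 kb. Shifted windows lay between the outermost regions of each chromosome, and for the pooled share chromosome 7 was counted once, from Mesp1. The counting was tested on simulated data. There were no replicates, so no test was run. All 6 genes and all their regions are named. The genes, windows and sequence words were chosen with earlier results of these data known. Strands, promoters (5 of the 6 genes matched) and gene order came from RefSeq tables on GRCm38.p6, and no position was converted between builds. The planned comparison of Mesp1 and Mesp2 proteins was not run.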

Additional observations from a re-analysis of the deposited data

How the results depend on the processing

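No paired analysis was possible because the series has 1 library per antibody and 1 mock library, and the list is not split by library. The number of regions was 8. It was 4 when regions narrower than the median width were left out, and 5 with windows of 25 kb or, chosen after seeing the data, 10 kb either side, as these settings keep fewer regions or less sequence. With 50 kb it was 6, and with 200 kb it was 12, where Dll1 and Snai1 had 2 regions each and Mixl1 had 3. The share of shifted windows with a region moved with them, from 19.6% to 10.5% with the wider regions, 11% with 50 kb, 5.86% with 25 kb, 2.45% with 10 kb and 33.3% with 200 kb. The number of genes with a region was 6, 5 with 10, 25 or 50 kb (Dll1 lost) and 4 with the wider regions (Dll1 and Snai1 lost). With 100 kb, merging neighbours under 1 kb or counting any overlap left 8 regions and 6 genes. Moving all start positions by 5 kb did the same, and moving them up took 1 of the 3 regions from Mesp2. The counts within 10 kb were not recomputed with moved start positions. As the depth is unknown, what deeper sequencing would add at these genes cannot be judged.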
